A study of Mus musculus with 12 samples.

Results

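DHT, an androgen, was added to marrow stromal cells while adipogenic medium turned them towards fat cells. Its effect was read as the difference between ADM+DHT and ADM cultures in every protein-coding gene with a mean of at least 1 FPKM in either group. FPKM counts the sequenced fragments of a gene relative to its length and to the size of the library. That rule used the level of a gene and not its change, and it kept 10823 of the 11646 genes deposited for this pair of groups, out of 12028 in the whole series. The cells were M2-10B4, an established stromal line from the bone marrow of a C57BL/6J X C3H/HeJ mouse, so they stand for a single line grown alone and not for marrow with its blood cells and vessels. Confluent ADM+DHT cultures received 10 nM DHT (dihydrotestosterone) in ADM, a phenol red-free RPMI medium with 10% charcoal-stripped serum, 2 µg/mL insulin, 1 µM dexamethasone and 2 µM rosiglitazone. ADM cultures received the same medium without DHT, so both groups carried the glucocorticoid dexamethasone and the PPARγ activator rosiglitazone. A second pair of groups, DHT and control, was kept with and without 10 nM DHT in a regular medium whose composition is not stated. Medium and DHT were renewed every 3 days, cells were harvested on day 9, and each of the 4 groups has 3 replicate libraries of poly(A) RNA. No label says what the cultures without DHT received in its place.

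Fat cells of the marrow arise from stromal cells that can also form bone and that keep blood stem cells in place. Their formation runs through the transcription factors C/EBPβ, PPARγ and C/EBPα, which switch on genes for taking up fatty acids, storing them as triglyceride and burning them in mitochondria. DHT is the strongest natural androgen. Androgens act through a nuclear receptor that binds DNA at repeats of a 6-base word which it shares with the glucocorticoid receptor. Androgens are known to hold back fat cell formation in stromal and preadipocyte cultures.

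The 6 libraries summed to 247088 to 249919 FPKM in ADM+DHT and 258722 to 262869 FPKM in ADM. Library totals of reads are not given and were not recovered from the FPKM values, so the precision of each value rests on the 3 libraries of its group. The 13 mitochondrially encoded genes took 13.61% ± 0.313 of all FPKM in ADM+DHT and 16.78% ± 0.418 in ADM (SD, n = 3 each). The difference was -3.17 percentage points, with no overlap (exact permutation test, two-sided p = 0.1, the smallest that 3 against 3 can give). Of 10 stromal markers, 9 had values used here, and they summed to 2210 to 2240 FPKM in ADM+DHT, against 1514 to 1581 FPKM in ADM. Most of each sum came from Col1a1 and Col1a2, which had 1105 and 572 FPKM in ADM+DHT replicate 1 and 732 and 371 FPKM in ADM replicate 1. By the test given below 6 of the 9 were higher in ADM+DHT and 1, Kitl, was lower. The 7 fat cell markers summed to 642 to 713 FPKM in ADM+DHT and 1857 to 1947 FPKM in ADM, while DHT and control cells in regular medium stood at 24.5 to 25.8 and 24.8 to 38.4 FPKM. ADM cultures thus carried the markers that their label calls for, and ADM+DHT cultures kept a fat cell signal well above both groups in regular medium. In bulk RNA, fewer fat cells and less fat cell RNA per cell cannot be told apart. Markers of other cells were near the bottom of the scale. Only 3 of 8 macrophage and blood markers (Cd68, Lyz2 and Tyrobp) had values, summing to 5.25 to 6.19 FPKM in ADM+DHT and 6.45 to 7.30 FPKM in ADM. The only endothelial marker of 5 with values, Emcn, stayed under 1 FPKM in both groups.

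DHT changed 33.5% of the tested genes in adipogenic medium, in near balance between directions. With limma on log2(FPKM + 1) and Benjamini-Hochberg adjustment over all genes, 1860 genes (17.2% of those tested) were higher in ADM+DHT and 1768 (16.3%) were lower at an adjusted p below 0.05. "Rose" and "fell" below mean such a call, and every difference is ADM+DHT minus ADM on that log2 scale, ± its SE. Each count of a list below stands against these shares of 17.2% rises and 16.3% falls. That scale understates the fold of genes near 0. When each library was rescaled to the same sum of FPKM, the balance moved to 2572 higher and 1431 lower, so that 64.3% of calls were rises instead of 51.3%. Most changes were modest: 412 rises (3.81% of genes tested) and 595 falls (5.5%) reached 1.5-fold, 124 and 204 reached 2-fold, and 14 and 27 reached 4-fold. The large changes leaned towards falls, while the median over all genes was 0.0064. Abundant genes were called more often, with 10.1% rises and 11.6% falls among the 3735 genes at 1 to 5 FPKM, and 31.5% rises and 31.2% falls among the 397 genes at 100 FPKM or more. The shares set beside the lists were not matched for the level of their members. At the edge of the level filter, Adcy8 entered with 0.3229 FPKM in ADM+DHT and 1.0002 in ADM and Fgfr3 with 1.0003 and 0.4174, while Hoxa13 stayed out with 0.3016 in ADM+DHT and 0.9994 in ADM and Hcn2 with 0.9992 and 0.8557. The filter passed 208 genes through the ADM+DHT group alone and 278 through the ADM group alone. That entry largely fixed their direction, and such genes also count in the lists below. Examples named below that entered through ADM alone are Lep, Slc2a4, Ucp3, Acacb, Abcd2, Esr1, Tnc, Mmp9, Dusp4, Ces1f, Phospho1, Cidea and Pck1. Examples that entered through ADM+DHT alone are Klf5, Id4, Col15a1, Fzd9, Spink8 and Zbed6.

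**Figure D1:**
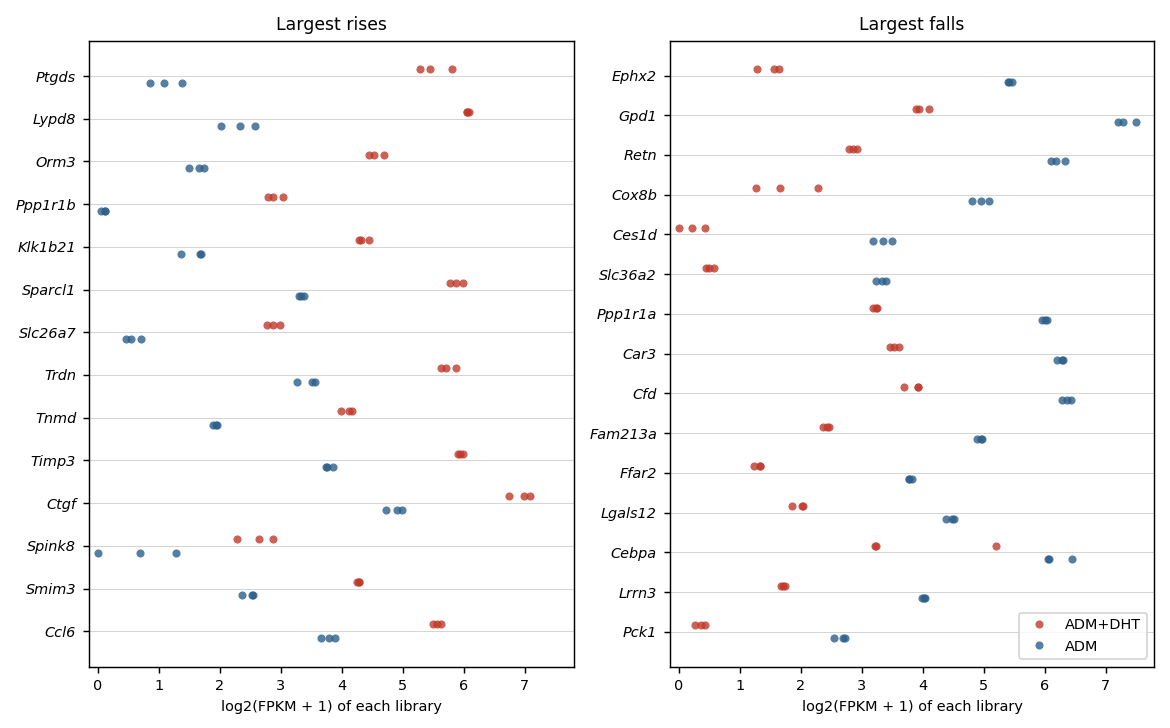
Levels of 14 of the 15 largest rises (left panel) and the 15 largest falls (right panel) as log2(FPKM + 1), 1 point per library, with the ADM+DHT libraries drawn above the ADM libraries of each gene. In each gene shown the 3 ADM+DHT libraries lie on one side of the 3 ADM libraries, which the choice of genes required.

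Among the largest rises were genes of muscle, tendon and matrix rather than of a single tissue. Trdn (ENSMUSG00000019787.9, chromosome 10, 33080554 to 33476709 on the plus strand, GRCm38 as in all coordinates here) encodes triadin, which anchors the calcium release channel in muscle, and it had 51.5, 57.4 and 48.2 FPKM in ADM+DHT, against 10.7, 10.4 and 8.62 FPKM in ADM, a difference of 2.29 ± 0.095 (limma, adjusted p = 4.92e-06). All ADM+DHT libraries were several times above all ADM libraries, and Trdn rose in regular medium too, with 34.7 ± 5.47 FPKM in DHT, against 2.21 ± 0.0952 FPKM in control (SD, n = 3 each).

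Tnmd (ENSMUSG00000031250.8, chromosome X, 133850980 to 133865577 on the plus strand), the tendon membrane protein tenomodulin, had 17.03, 14.8 and 16.4 FPKM in ADM+DHT, against 2.697, 2.88 and 2.81 FPKM in ADM, a difference of 2.17 ± 0.067 (adjusted p = 1.93e-06). Its level was low in both adipogenic groups when set beside regular medium, where it had 93.8, 86.7 and 95.5 FPKM in DHT, against 68.3, 77.4 and 76.3 FPKM in control. Timp3 (ENSMUSG00000020044.13, chromosome 10, 86300372 to 86349506 on the plus strand), an inhibitor of metalloproteinases that is itself bound to the matrix, had 58.8, 62.7 and 60.4 FPKM in ADM+DHT, against 12.3, 12.4 and 13.4 FPKM in ADM, a difference of 2.17 ± 0.048 (adjusted p = 8.49e-07). DHT and control cells had 66.6, 65.2 and 69.1 and 79.5, 79.4 and 79.3 FPKM, so the level in ADM+DHT lay near that of the regular medium and the ADM libraries alone were low. Ctgf (ENSMUSG00000019997.11, chromosome 10, 24595442 to 24598683 on the plus strand), a matricellular growth factor also called CCN2 and a known target of YAP and TGF-β signalling, had 135, 126 and 106 FPKM in ADM+DHT, against 25.5, 28.8 and 30.5 FPKM in ADM, a difference of 2.07 ± 0.1 (adjusted p = 9.47e-06).

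The smaller of the 15 rises included a chemokine and short secreted or membrane proteins. Ccl6, a mouse chemokine that attracts myeloid cells, had 43.95, 48.4 and 46.2 FPKM in ADM+DHT, against 12.8, 11.6 and 13.8 FPKM in ADM, a difference of 1.78 ± 0.068. Smim3, a small membrane protein, rose by 1.80 ± 0.065, at 18.3 ± 0.256 FPKM in ADM+DHT, against 4.56 ± 0.389 FPKM in ADM (SD, n = 3 each). Spink8, a protease inhibitor of the Kazal type, had 6.304, 3.83 and 5.201 FPKM in ADM+DHT, against 1.43, 0.619 and 0 FPKM in ADM, and its ADM libraries were scattered down to a value listed at 0 (difference 1.93 ± 0.31, adjusted p = 0.00315).

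The word to which androgen and glucocorticoid receptors bind was looked for in the promoters, and the stretches that hold it are shown first where the results turn on them. Promoters here are the 250 bases before and the 50 after each RefSeq start (GRCm38.p6), and 8423 of 10814 tested symbols had one. The word AGAACA, read on either strand, was in 14.2% of them. It was in 41 of 283 promoters of genes that rose at least 1.5-fold (14.5%) and in 70 of 440 of those that fell at least 1.5-fold (15.9%), shares near that of all promoters. Of the 15 largest rises 7 had a promoter, and 1 of these, that of Lypd8, held the word. Of the 15 largest falls 6 had a promoter, and 1 of these, that of Ffar2, held the word. It lay at -185 and -238 from the starts of different Ffar2 windows, and the remaining windows of this gene had none. Lypd8 is a protein of the colon lining and had 65.4, 65.5 and 66.7 FPKM in ADM+DHT, against 4.96, 3.03 and 4.01 FPKM in ADM. Its window at chr11:58380396-58380695 did not hold the word. The 250 bases before its other start (chr11:58378782-58379031, plus strand, from RefSeq) carry the word once on each strand, in capitals:
Lypd8: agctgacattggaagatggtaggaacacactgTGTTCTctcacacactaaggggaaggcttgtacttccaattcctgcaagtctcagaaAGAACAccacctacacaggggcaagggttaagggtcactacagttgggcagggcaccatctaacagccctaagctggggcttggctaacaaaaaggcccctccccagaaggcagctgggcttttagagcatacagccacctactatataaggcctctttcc
The only promoter with the full palindrome, AGAACA followed after 3 bases by TGTTCT, was that of Sgk1, a kinase that is a classical glucocorticoid and mineralocorticoid target, from -219 to -145 relative to its start (chr10:21993671-21993745, plus strand, palindrome in capitals):
Sgk1: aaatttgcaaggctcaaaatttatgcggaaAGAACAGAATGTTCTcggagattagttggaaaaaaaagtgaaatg
Sgk1 did not pass in adipogenic medium, with 91.5, 91.1 and 80.1 FPKM in ADM+DHT, against 84.8, 93.7 and 96.3 FPKM in ADM, and the libraries of the groups overlapped. In regular medium it had 31.7, 31 and 32.9 FPKM in DHT, against 22.5, 23.6 and 26.04 FPKM in control, without overlap and with a difference of 0.39 ± 0.06. The repeat of AGGTCA with 1 base between, on either strand, bound by PPARγ with its partner, was in 2 promoters of all, neither of a gene changed 1.5-fold. Such a match is a description of these letters in this window and says nothing of whether a receptor was bound there.

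Many of the largest falls were of genes known from fat cells. Ephx2, an epoxide hydrolase, Gpd1, which makes glycerol phosphate, and Retn, the hormone resistin, led them with differences of -3.93 ± 0.094, -3.36 ± 0.086 and -3.35 ± 0.07. Fam213a (ENSMUSG00000021792.15, chromosome 14, 40993740 to 41013788 on the minus strand), which encodes a thioredoxin-like protein now called Prxl2a, had 4.52, 4.41 and 4.18 FPKM in ADM+DHT, against 28.8, 30.4 and 30.1 FPKM in ADM, a difference of -2.52 ± 0.051 (adjusted p = 6.50e-07). Its libraries hardly varied within a group, which gave it one of the 5 smallest adjusted p of all genes. Cfd, the complement factor adipsin secreted by fat cells, had 11.9, 14.1 and 14.2 FPKM in ADM+DHT, against 77.3, 85.3 and 81.5 FPKM in ADM, a difference of -2.52 ± 0.074. Ffar2, the receptor for short-chain fatty acids, had 1.35, 1.52 and 1.52 FPKM in ADM+DHT, against 12.8, 12.7 and 13.1 FPKM in ADM (-2.49 ± 0.061). Lgals12, a galectin that sits on lipid droplets, had 2.61, 3.04 and 3.12 FPKM in ADM+DHT, against 21.7, 19.9 and 21.3 FPKM in ADM (-2.49 ± 0.071). In regular medium Lgals12 was almost without signal and had 0.0394, 0 and 0.0432 FPKM in DHT, against 0.0627, 0.0604 and 0.0974 FPKM in control.

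Lrrn3 and Nabp1 are not known as fat cell genes. Lrrn3, a leucine-rich repeat protein of neurons, had 2.27, 2.204 and 2.33 FPKM in ADM+DHT, against 15.3, 15.3 and 14.8 FPKM in ADM, a difference of -2.31 ± 0.054, and it also fell in regular medium (-0.98 ± 0.064). Nabp1, a protein that binds single-stranded DNA, had 23.1, 23.9 and 24.5 FPKM in ADM+DHT, against 87.9, 87.7 and 90.4 FPKM in ADM, a difference of -1.85 ± 0.037 (adjusted p = 6.50e-07). Its groups were nearly 4-fold apart, with libraries within a few percent of each other. Pck1, the enzyme that feeds glycerol for triglyceride from pyruvate, had 0.354, 0.205 and 0.284 FPKM in ADM+DHT, against 5.43, 4.81 and 5.62 FPKM in ADM (-2.29 ± 0.086).

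Genes of mitochondria fell together and far more often than the background of 16.3%. Of 80 tested nuclear genes of the respiratory chain 69 fell and 1 rose, with a median difference of -0.54, against 0.0064 over all genes. The falls ran through every complex: 31 of 36 genes of complex I (median -0.47), 4 of 4 of complex II (-0.64), 9 of 9 of complex III (-0.82), 11 of 13 of complex IV (-0.54) and 13 of 16 of the ATP synthase (-0.60). Uqcrfs1 (chromosome 13), the iron-sulfur protein of complex III, had 32.6, 34.7 and 32.01 FPKM in ADM+DHT, against 85.7, 89.6 and 90.3 FPKM in ADM, a difference of -1.39 ± 0.043 (limma, adjusted p = 1.93e-06). Cycs, cytochrome c, the carrier between complexes III and IV, had 37.6 ± 0.4905 FPKM in ADM+DHT, against 95.8 ± 5.42 FPKM in ADM (SD, n = 3 each), a difference of -1.32 ± 0.047. Ndufa12 of complex I had a difference of -1.25 ± 0.051. The strongest fall in complex IV was that of Cox8b, the muscle and brown fat form of a subunit, at -3.21 ± 0.23. Cox6a2, the muscle form of another, had 2.83, 2.36 and 4.29 FPKM in ADM+DHT, against 0.906, 2.42 and 2.01 FPKM in ADM and did not pass (adjusted p = 0.111).

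The 13 subunits that the mitochondrial genome itself encodes moved the same way by less. Of these, 12 fell, with a median of -0.34, from -0.52 ± 0.077 in mt-Atp8 and -0.50 ± 0.052 in mt-Nd1 to -0.26 ± 0.035 in mt-Nd4. mt-Nd6, the only one of the 13 encoded on the light strand, had 145, 126 and 136 FPKM in ADM+DHT, against 126, 149 and 133 FPKM in ADM and overlapped between groups.

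Mitochondrial ribosomes followed, cytosolic ones did not. Of 78 mitochondrial ribosomal protein genes 47 fell and none rose (limma, median -0.26, with 54 lower and 0 higher at an unadjusted p below 0.05), led by Mrpl12 at -0.94 ± 0.054 with 35.5 ± 0.946 FPKM in ADM+DHT, against 69.1 ± 4.66 FPKM in ADM. Of 78 cytosolic ribosomal protein genes 9 fell and 1 rose with a median of -0.025, which on libraries rescaled to the same sum turned to 4 falls and 16 rises, and without ADM+DHT replicate 2 or ADM replicate 3 the falls were 5. For the mitochondrial set the rescaled counts were 37 falls and 1 rise.

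**Figure D2:**
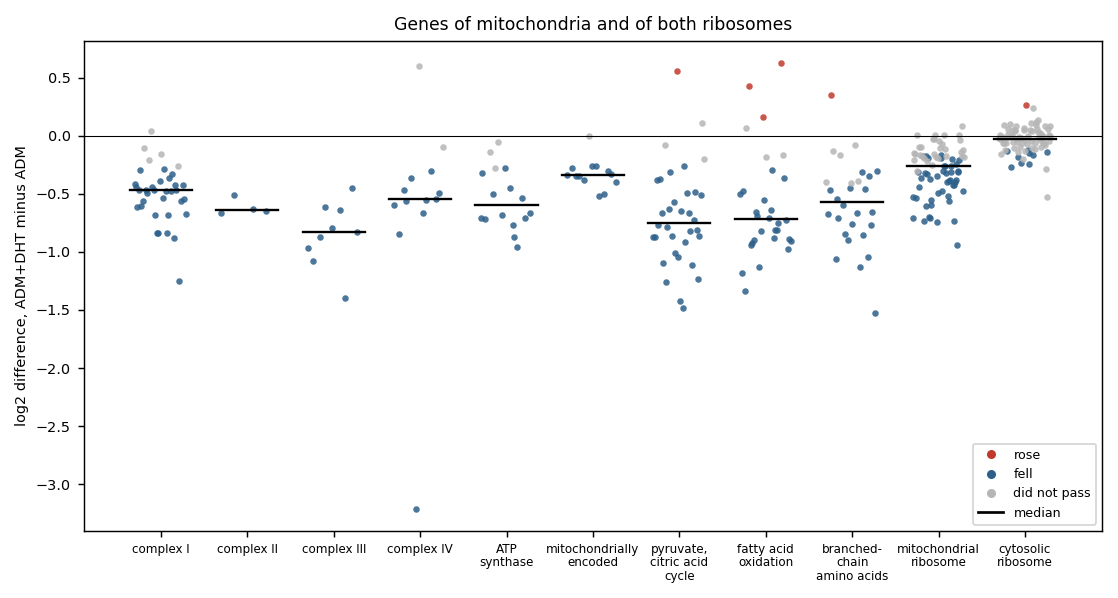
Log2 difference, ADM+DHT minus ADM, of each tested gene (points) by mitochondrial group, with both ribosomes at the right and a black bar at each median. Blue points fell, red points rose and grey points did not pass; the medians of the mitochondrial groups lie between -0.26 and -0.82, and that of the cytosolic ribosome at -0.025.

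Genes for the enzymes that feed the respiratory chain fell as well. Of 34 genes of the pyruvate dehydrogenase and citric acid cycle list 30 fell and 1 rose (median -0.75). Idh3a, a subunit of the cycle's rate-setting isocitrate dehydrogenase, had 20.2, 21.8 and 19.7 FPKM in ADM+DHT, against 56.1, 58.4 and 63.7 FPKM in ADM, a difference of -1.48 ± 0.061. Pcx, pyruvate carboxylase, which refills the cycle, had 35.9, 36.3 and 36.4 FPKM in ADM+DHT, against 94.6, 96.2 and 105 FPKM in ADM (-1.42 ± 0.045). In both genes the highest ADM+DHT library lay far under the lowest ADM library. Cs, citrate synthase, the entry to the cycle, had a difference of -1.26 ± 0.05, Dlat of the pyruvate dehydrogenase complex of -1.23 ± 0.062, and Pdhb of -1.11 ± 0.061. The only rise was that of Pdp1, a phosphatase that switches pyruvate dehydrogenase on, at 0.56 ± 0.056 with 30.5, 32.9 and 29.2 FPKM in ADM+DHT, against 19.8, 20.6 and 21.4 FPKM in ADM. This call ended with a variance taken from all 12 libraries (adjusted p = 0.248).

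Fatty acid oxidation in mitochondria showed 24 falls and 3 rises among 30 tested genes (median -0.72). Crat, which makes carnitine esters of short acyl chains, had 12.6 ± 1.61 FPKM in ADM+DHT, against 29.6 ± 2.67 FPKM in ADM, a difference of -1.18 ± 0.098. Hadhb of the trifunctional protein had a difference of -0.94 ± 0.087. Ucp3, an uncoupling protein of muscle mitochondria, had 0.408 FPKM in ADM+DHT cells, against 1.76 FPKM in ADM cells (-0.97 ± 0.13). Of the carnitine shuttle that lets long chains into the mitochondrion, Cpt2 and Slc25a20, added after their values were seen, fell (-0.82 ± 0.08 and -0.65 ± 0.1). Cpt1a, which makes the carnitine ester, rose, with 21.5, 19.4 and 19.6 FPKM in ADM+DHT, against 14.6, 14.04 and 15.5 FPKM in ADM (0.43 ± 0.059, adjusted p = 0.00137). Its brain relative Cpt1c rose too, with 6.699, 6.46 and 6.61 FPKM in ADM+DHT, against 3.88, 3.72 and 4.16 FPKM in ADM (0.63 ± 0.061, adjusted p = 0.000271). Neither overlapped between groups.

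Peroxisomes and the breakdown of branched-chain amino acids, a fuel of fat cells, also leaned downwards. Of 41 peroxisomal genes 27 fell and 1 rose (median -0.38). Abcd2, a transporter of very long acyl chains, had a difference of -1.07 ± 0.13. Cat, catalase, had 82.7 ± 3.32 FPKM in ADM+DHT, against 159 ± 6.81 FPKM in ADM (-0.93 ± 0.045), and the assembly factors Pex16 and Pex19 had -0.88 ± 0.1 and -0.74 ± 0.052. Of 28 genes of branched-chain amino acid breakdown 21 fell and 1 rose (median -0.57). Bckdhb, a subunit of the enzyme that commits these acids to breakdown, had 11.5, 13.4 and 12.6 FPKM in ADM+DHT, against 37.6, 39.3 and 36.3 FPKM in ADM, a difference of -1.52 ± 0.064. Hibch of the valine branch had -1.13 ± 0.058 and Dbt of the same dehydrogenase -1.06 ± 0.063. Bcat1, the cytosolic transaminase, rose by 0.35 ± 0.091 with 2.196 ± 0.273 FPKM in ADM+DHT, against 1.51 ± 0.134 FPKM in ADM, a call that ended without ADM+DHT replicate 1 or 2 or ADM replicate 1 or 2 (adjusted p up to 0.0793). Its mitochondrial relative Bcat2 fell, with 17.7 ± 0.778 FPKM in ADM+DHT, against 32.8 ± 1.31 FPKM in ADM. Bcat2 was added after its values were seen.

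Fat uptake and storage fell in most of their steps. Of 20 tested uptake and carrier genes 11 fell and 3 rose (median -0.35). Cd36, the fatty acid transporter, had 37.4, 39.9 and 41.6 FPKM in ADM+DHT, against 139.5, 133 and 142 FPKM in ADM (-1.78 ± 0.049). Acsl1, which activates fatty acids for storage, had 34.9, 23.2 and 22.7 FPKM in ADM+DHT, against 140.4, 88.3 and 153 FPKM in ADM (-2.19 ± 0.24), with the widest libraries of the group still apart. Fabp5, a fatty acid carrier, had 57.7 ± 1.85 FPKM in ADM+DHT, against 146 ± 9.78 FPKM in ADM (-1.33 ± 0.053). Lrp1 and Vldlr, receptors that take up lipoproteins, rose by 0.52 ± 0.037 and 0.38 ± 0.05, and Acot11, a thioesterase of brown fat, by 0.68 ± 0.088.

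On the glycerol phosphate route to triglyceride 12 of 21 genes fell and 3 rose (median -0.36). Agpat2, the acyltransferase whose loss causes absence of fat in humans, had 14.2, 11.3 and 13.6 FPKM in ADM+DHT, against 97.7, 40.9 and 44.2 FPKM in ADM, a difference of -2.03 ± 0.31 (adjusted p = 0.00223). One ADM library stood well above the other two, and all 3 lay above ADM+DHT. Dgat2 of the last step had 9.201 ± 1.09 FPKM in ADM+DHT, against 24.7 ± 0.874 FPKM in ADM (-1.34 ± 0.083). Agpat4 and the mitochondrial Pck2 rose by 0.44 ± 0.046 and 0.57 ± 0.1. On the droplet and in lipolysis 16 of 24 genes fell and 1 rose (median -0.87): Mgll, which clears monoglycerides, had 4.95, 6.93 and 3.395 FPKM in ADM+DHT, against 24.9, 25.3 and 26.5 FPKM in ADM (-2.16 ± 0.19). Plin1, the coat protein of mature droplets, had 20.9, 29.9 and 27.9 FPKM in ADM+DHT, against 86.3, 89.5 and 93.7 FPKM in ADM (-1.75 ± 0.12). Plin3, a coat protein found in most cells, rose by 0.19 ± 0.04 with 41.7 ± 1.07 FPKM in ADM+DHT, against 36.4 ± 1.09 FPKM in ADM.

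Synthesis of fatty acids fell in 15 of 26 genes and rose in 3 (median -0.48). Slc25a1, the carrier that brings citrate out of mitochondria, had a difference of -0.92 ± 0.066, Acacb, the carboxylase that restrains oxidation, of -0.94 ± 0.095, and Hsd17b12, an elongation enzyme, of -0.96 ± 0.11. Against these, Elovl6, which extends palmitate, had 21.5, 23.7 and 23.6 FPKM in ADM+DHT, against 16.2, 15.9 and 14.97 FPKM in ADM (0.52 ± 0.055). Hacd2, another elongation enzyme, rose by 0.29 ± 0.035, and Acly, which makes acetyl-CoA from citrate, by 0.17 ± 0.036. Cholesterol synthesis had 17 falls and 1 rise among 27 genes (median -0.34), with Dhcr7 of the last step at -1.42 ± 0.22 and Ebp, a sterol isomerase, as the rise at 0.56 ± 0.044. Of the efflux and lipoprotein genes, 5 of 15 fell and 3 rose; the scavenger receptors Scarb1 and Olr1 had -1.55 ± 0.072 and -1.56 ± 0.098, while Npc1, which releases cholesterol from lysosomes, rose by 0.50 ± 0.074.

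**Figure D3:**
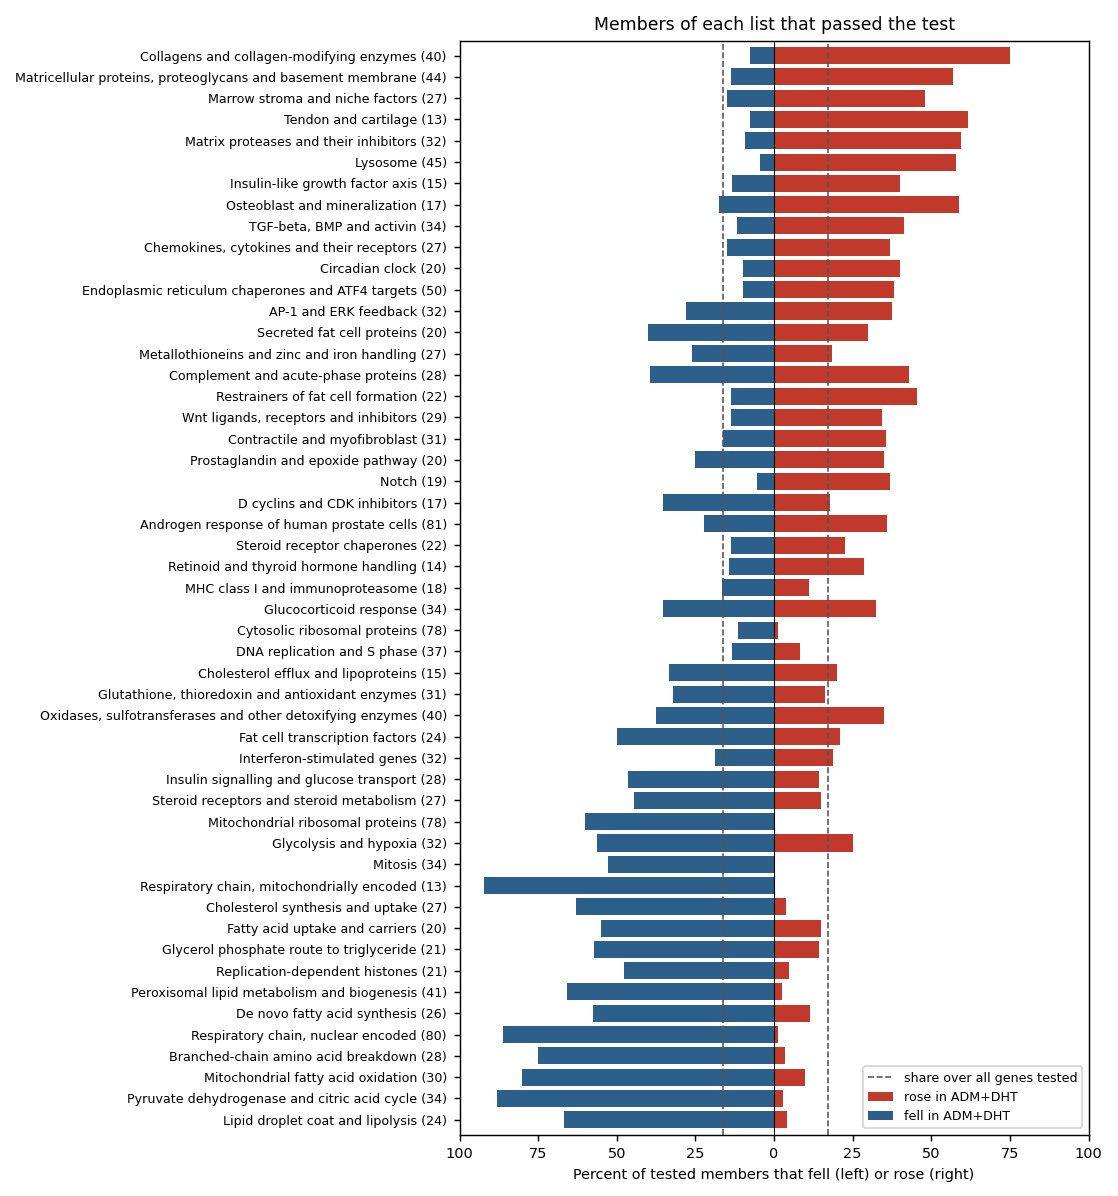
Share of tested members of each gene list with at least 13 of them that fell (left) or rose (right) in ADM+DHT against ADM, with dashed lines at 16.3% and 17.2%, the shares over all 10823 genes, and lists ordered by their median log2 difference. The citric acid cycle, fatty acid oxidation, lipid droplet and respiratory chain lists lean to falls, and the collagen, matrix and lysosome lists to rises.

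Genes for insulin signalling and glucose uptake leaned downwards. Of 28 genes 13 fell and 4 rose (median -0.18). Slc2a4, the insulin-driven glucose transporter GLUT4, had 0.466, 0.674 and 0.536 FPKM in ADM+DHT, against 2.48, 2.35 and 2.65 FPKM in ADM (-1.17 ± 0.084). Hk2, a hexokinase, had a difference of -1.09 ± 0.072 and Irs2, a substrate of the insulin receptor, of -1.03 ± 0.062. Ppp1r3c, which targets a phosphatase to glycogen, rose, with 41.2, 39.1 and 37.5 FPKM in ADM+DHT, against 17.5, 19.4 and 16.3 FPKM in ADM (1.11 ± 0.069). So did the kinase subunit Pik3ca (0.65 ± 0.068).

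In the growth hormone and insulin-like growth factor axis 6 of 15 genes rose and 2 fell. Ghr, the growth hormone receptor, had 36.4, 36.98 and 36.2 FPKM in ADM+DHT, against 79.6, 78.6 and 78.7 FPKM in ADM, a difference of -1.09 ± 0.031 (adjusted p = 1.59e-06), with groups more than 2-fold apart. Igfbp5, a binding protein stored in bone matrix, rose with 176 ± 3.102 FPKM in ADM+DHT, against 90.05 ± 1.76 FPKM in ADM (0.96 ± 0.031). So did Pappa, the protease that frees the growth factor from binding proteins (1.08 ± 0.059), and Stc2, which blocks that protease (1.14 ± 0.12). Glycolysis and hypoxia genes showed 18 falls and 8 rises among 32 (median -0.26), with 4 rises without ADM replicate 3 and 5 without ADM+DHT replicate 2 or 3 or ADM replicate 1. Pfkfb3, which makes the activator of glycolysis, had 2.801 ± 0.197 FPKM in ADM+DHT, against 10.7 ± 0.572 FPKM in ADM (-1.62 ± 0.069), and Bnip3, a mitophagy receptor, had -1.13 ± 0.046. Ndrg1, which is also on the androgen list below, rose with 73.3, 72.2 and 71.5 FPKM in ADM+DHT, against 28.2, 27.4 and 29.3 FPKM in ADM (1.32 ± 0.038).

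Transcription factors of fat cells fell less evenly than the enzymes. Of 24 tested 12 fell and 5 rose (median -0.17), and the rises were 3 when ADM+DHT replicate 1, ADM replicate 1 or ADM replicate 2 was left out. Cebpa had 8.39, 35.95 and 8.31 FPKM in ADM+DHT, against 86.8, 65.7 and 65.9 FPKM in ADM, a difference of -2.31 ± 0.51 (adjusted p = 0.0121). One ADM+DHT library stood more than 4-fold above the others and still under every ADM library. Ppargc1b, a coactivator of mitochondrial genes, had 1.12 ± 0.0667 FPKM in ADM+DHT, against 5.14 ± 0.3895 FPKM in ADM (-1.53 ± 0.076), and Cebpg, a partner of C/EBP factors, -0.88 ± 0.099. Pparg itself fell by less than its targets, at -0.67 ± 0.058. Klf5, which takes part in early fat cell formation, rose, with 3.14, 3.04 and 2.83 FPKM in ADM+DHT, against 0.586, 0.763 and 0.808 FPKM in ADM (1.22 ± 0.083). Trib3, a pseudokinase that restrains AKT, had 5.47, 5.83 and 3.95 FPKM in ADM+DHT, against 1.79, 2.04 and 2.31 FPKM in ADM (0.99 ± 0.13).

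Among genes listed as restrainers of fat cell formation 10 of 22 rose and 3 fell (median 0.073). Id4, an inhibitor of DNA-binding helix-loop-helix factors, had 3.81 ± 0.455 FPKM in ADM+DHT, against 0.773 ± 0.0553 FPKM in ADM (1.44 ± 0.089). Id2 had 8.44 ± 0.596 FPKM in ADM+DHT, against 4.42 ± 0.202 FPKM in ADM (0.80 ± 0.069). Tgfb1, the growth factor, had 5.42 ± 0.278 FPKM in ADM+DHT, against 3.15 ± 0.0818 FPKM in ADM (0.63 ± 0.064). Klf4 had 36.2, 35.9 and 34.8 FPKM in ADM+DHT, against 15.4, 16.3 and 15.6 FPKM in ADM (1.13 ± 0.042). Not all of these act only as brakes, since Klf4 and the Id proteins are also known to serve early steps of fat cell formation. Hmga2, a chromatin factor of dividing precursors, fell (-0.80 ± 0.14), as did Foxo1, a target of insulin signalling (-0.48 ± 0.064).

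Secreted fat cell proteins split: 8 of 20 fell and 6 rose. Besides Cfd, Lep, the hormone leptin, had 0.517, 0.584 and 0.677 FPKM in ADM+DHT, against 2.897, 2.86 and 1.54 FPKM in ADM (-1.08 ± 0.17) and Apoc1, an apolipoprotein, -1.57 ± 0.13. Among the rises were C1qtnf1 and C1qtnf6, relatives of adiponectin with a collagen stalk, at 0.82 ± 0.064 and 0.75 ± 0.074, and Metrnl, a hormone-like protein, at 0.67 ± 0.091. Of 26 brown fat genes listed only 8 were tested, and of these 5 fell and 3 rose. Cidea, a droplet protein, and Slc25a34, a mitochondrial carrier, fell (-1.53 ± 0.084 and -1.29 ± 0.075). Cidea, like Lep, reached a mean of 1 FPKM in ADM alone, so the level filter largely fixed the direction of both. Rises were those of Ckb, which serves a creatine cycle of heat production (0.56 ± 0.11), and P2rx5, a surface receptor (0.77 ± 0.12).

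Genes of the matrix rose as a group. Of 40 collagens and collagen-modifying enzymes 30 rose and 3 fell, against 17.2% and 16.3% over all genes, with a median of 0.35. Col4a5, a basement membrane collagen of the X chromosome, had 45.5, 43.8 and 46.4 FPKM in ADM+DHT, against 15.8, 14.4 and 13.7 FPKM in ADM, a difference of 1.57 ± 0.059 (limma, adjusted p = 3.60e-06). Adamts14, a protease that trims procollagen, had 15.7, 15.5 and 15.9 FPKM in ADM+DHT, against 4.92, 5.02 and 4.65 FPKM in ADM (1.51 ± 0.051). Plod1 and Loxl1, which hydroxylate and cross-link collagen and elastin, had 1.05 ± 0.034 and 0.82 ± 0.04, and Col15a1 had 0.90 ± 0.073 at 1.62 FPKM in ADM+DHT cells, against 0.405 FPKM in ADM cells. The falls were small, with Col6a3, a microfibril collagen, at 236 ± 3.48 FPKM in ADM+DHT, against 307 ± 0.8802 FPKM in ADM (-0.38 ± 0.026) and P4ha3 at -0.40 ± 0.058.

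Matricellular proteins, proteoglycans and basement membrane had 25 rises and 6 falls among 44 (median 0.32). Beside Ctgf, its relatives Wisp2 and Nov, known also as CCN5 and CCN3, also rose. Wisp2 had 51.3, 48.9 and 49.7 FPKM in ADM+DHT, against 16.3, 15.2 and 16.2 FPKM in ADM (1.59 ± 0.044). Nov had 82.8, 84.3 and 76.1 FPKM in ADM+DHT, against 36.01, 35.8 and 37.6 FPKM in ADM (1.13 ± 0.048). Tnc, tenascin C, a matrix protein of repair sites, fell, with 0.339, 0.546 and 0.389 FPKM in ADM+DHT, against 3.22, 3.46 and 2.93 FPKM in ADM (-1.56 ± 0.091), and Fbln1 and Lama4 also fell (-0.67 ± 0.064 and -0.54 ± 0.05). Matrix proteases and their inhibitors had 19 rises and 3 falls among 32 (median 0.28). Mmp11, a stromal metalloproteinase, had 39.1 ± 1.51 FPKM in ADM+DHT, against 20.2 ± 1.18 FPKM in ADM (0.92 ± 0.055). The falls were in Timp4, an inhibitor found in fat and heart, at -1.21 ± 0.097, Mmp9 at -1.09 ± 0.11 with 0.2799 FPKM in ADM+DHT cells, against 1.72 FPKM in ADM cells, and Mmp16 at -0.44 ± 0.071.

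The stromal side of the cells rose in part. Of 27 marrow stroma and niche factors 13 rose and 4 fell (median 0.32). Vcam1, an adhesion molecule for blood cells, had 91.3, 93.03 and 92.9 FPKM in ADM+DHT, against 39.7, 39.7 and 40.6 FPKM in ADM (1.19 ± 0.031, adjusted p = 1.45e-06). Ptn, pleiotrophin, a growth factor for blood stem cells, had 197, 199 and 206 FPKM in ADM+DHT, against 74.9, 82.6 and 79.7 FPKM in ADM (1.33 ± 0.043). Cdh11, the cadherin of osteoblasts and stroma, had 147 ± 1.67 FPKM in ADM+DHT, against 82.7 ± 1.94 FPKM in ADM (0.82 ± 0.031). Kitl, stem cell factor, fell, with 76.99, 78 and 73.5 FPKM in ADM+DHT, against 97.3, 102 and 89.2 FPKM in ADM (-0.33 ± 0.054), as did the adhesion molecules Alcam (-1.42 ± 0.081) and Mcam (-0.94 ± 0.11).

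Osteoblast genes showed 10 rises and 3 falls among 17, with the falls near the 16.3% of all genes. Dlx5, a bone transcription factor, had 10.4, 12.1 and 12.9 FPKM in ADM+DHT, against 4.72, 4.69 and 5.74 FPKM in ADM (1.08 ± 0.1). Omd, osteomodulin, had 85.5 ± 1.13 FPKM in ADM+DHT, against 42.7 ± 0.646 FPKM in ADM (0.98 ± 0.032). Enpp1, which makes the mineral inhibitor pyrophosphate, fell, with 8.74 ± 0.183 FPKM in ADM+DHT, against 16.7 ± 0.282 FPKM in ADM (-0.86 ± 0.045). Smpd3, a sphingomyelinase needed for bone mineral, had a difference of -0.64 ± 0.087. Phospho1, a phosphatase of matrix vesicles, had 1.25, 0.608 and 0.416 FPKM in ADM+DHT, against 3.51, 5.42 and 1.21 FPKM in ADM, with libraries that overlapped, and its call ended when any of 5 libraries was left out (adjusted p up to 0.124). Of 13 tendon and cartilage genes 8 rose and 1 fell; beside Tnmd, Hapln1, which links aggrecan to hyaluronan, had 0.89 ± 0.081 and Matn2, matrilin 2, 92.8 ± 1.17 FPKM in ADM+DHT, against 64.1 ± 1.096 FPKM in ADM (0.53 ± 0.031).

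Growth factor pathways of stroma leaned upwards. Of 34 TGF-β, BMP and activin genes 14 rose and 4 fell (median 0.20). The ligands Tgfb2 and Tgfb3 rose. Tgfb2 had 27.2 ± 0.934 FPKM in ADM+DHT, against 14.8 ± 0.5796 FPKM in ADM (0.84 ± 0.049) and Tgfb3 a difference of 0.83 ± 0.038. Inhba, which forms activin A, had 38.7 ± 1.33 FPKM in ADM+DHT, against 19.4 ± 0.993 FPKM in ADM (0.96 ± 0.051), and Nbl1, a BMP antagonist, 0.99 ± 0.072. Fstl1, a follistatin-like protein, fell (-0.35 ± 0.036). Wnt genes had 10 rises and 4 falls among 29, with the falls near the 16.3% of all genes. The receptor Fzd9 had 2.62 FPKM in ADM+DHT cells, against 0.311 FPKM in ADM cells (1.46 ± 0.12). Ror1, a receptor of Wnt5a, rose by 0.57 ± 0.073 and Nkd2, an inhibitor, by 0.55 ± 0.076. Rspo2, which strengthens Wnt signals, fell (-0.69 ± 0.11), as did the receptors Fzd8 and Fzd4 (-0.58 ± 0.056 and -0.33 ± 0.06). The smooth muscle and myofibroblast list had 11 rises and 5 falls among 31, with the falls near the 16.3% of all genes. Csrp2, a LIM protein, had 0.72 ± 0.057 and the integrin genes Itga1 and Itga7 had -1.07 ± 0.074 and -0.97 ± 0.08.

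On the AP-1 and ERK list 12 of 32 genes rose and 9 fell. Phlda1, a pleckstrin-homology protein induced by growth factors, had 52.2, 57.3 and 50.96 FPKM in ADM+DHT, against 18.4, 19.3 and 21 FPKM in ADM (1.41 ± 0.065). Nr4a1, an orphan nuclear receptor induced within minutes of a stimulus, had 20.5 ± 1.85 FPKM in ADM+DHT, against 9.61 ± 0.417 FPKM in ADM (1.02 ± 0.071). Dusp1, a phosphatase of stress kinases, had 24.7 ± 0.822 FPKM in ADM+DHT, against 13.2 ± 1.42 FPKM in ADM (0.86 ± 0.078). Not all feedback genes rose: the inhibitors Dusp4 and Spry4, known read-outs of ERK activity, fell. Dusp4 had 0.786, 0.462 and 1.31 FPKM in ADM+DHT, against 4.45, 5.38 and 4.96 FPKM in ADM (-1.70 ± 0.17). Spry4 had 1.66, 1.54 and 2.17 FPKM in ADM+DHT, against 5.38, 4.996 and 5.46 FPKM in ADM (-1.18 ± 0.098). Fosl1, an AP-1 partner, had -0.62 ± 0.14. Circadian clock genes had 8 rises and 2 falls among 20. The repressors Bhlhe41 and Ciart rose by 0.96 ± 0.091 and 0.94 ± 0.14. The output factor Dbp had 8.097 ± 0.985 FPKM in ADM+DHT, against 4.44 ± 0.269 FPKM in ADM (0.74 ± 0.089).

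Lysosomal genes rose in 26 of 45 cases and fell in 2 (median 0.24). Ctsk, cathepsin K, a collagen-degrading protease, had 100.6, 100.1 and 98.9 FPKM in ADM+DHT, against 49.5, 56.04 and 56.6 FPKM in ADM (0.88 ± 0.054). Hexa, a subunit of hexosaminidase, had 119 ± 1.799 FPKM in ADM+DHT, against 74.3 ± 2.26 FPKM in ADM (0.67 ± 0.035). Gaa, which breaks down glycogen, had 61.6 ± 1.29 FPKM in ADM+DHT, against 41.1 ± 0.525 FPKM in ADM (0.57 ± 0.034). Gm2a, the activator protein that works with hexosaminidase, fell, with 30.9 ± 1.51 FPKM in ADM+DHT, against 45.4 ± 1.94 FPKM in ADM (-0.54 ± 0.051). Of 50 genes for chaperones of the endoplasmic reticulum and targets of ATF4, 19 rose and 5 fell. Slc7a5 and Slc3a2, the subunits of an amino acid exchanger, rose by 0.78 ± 0.087 and 0.70 ± 0.062. Cth, which makes cysteine, fell (-1.32 ± 0.12), as did Dnajb9, a co-chaperone (-0.88 ± 0.047).

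Genes of dividing cells were low in both groups. Of 34 mitosis genes 18 fell and none rose (limma, with 24 lower and 0 higher at an unadjusted p below 0.05). There were 10 falls without ADM replicate 1, 11 without ADM+DHT replicate 2 and 2 among genes at 5 FPKM or more. Mki67, the marker of cycling cells, had 4.77, 3.56 and 3.34 FPKM in ADM+DHT, against 8.41, 6.66 and 6.54 FPKM in ADM (-0.75 ± 0.13). Ube2c, which drives exit from mitosis, had 1.36 ± 0.631 FPKM in ADM+DHT, against 3.09 ± 0.119 FPKM in ADM (-0.83 ± 0.19). The changes in cyclins were mixed: Ccnd1, the D cyclin of the response to growth factors, rose with 25.6 ± 1.39 FPKM in ADM+DHT, against 17.7 ± 1.46 FPKM in ADM (0.51 ± 0.069). On the DNA replication and S phase list 5 of 37 genes fell and 3 rose (median -0.046), which is no more than over all genes. Ccne1, a cyclin of the start of S phase, fell (-0.78 ± 0.1). Cdkn1a, the CDK inhibitor p21, had 40.6 ± 1.72 FPKM in ADM+DHT, against 63.7 ± 4.08 FPKM in ADM (-0.64 ± 0.056). Of 21 replication-dependent histone genes 10 fell and 1 rose. Hist1h4h, a copy of histone H4, had 6.28, 5.47 and 3.61 FPKM in ADM+DHT, against 18.1, 17.2 and 17.98 FPKM in ADM (-1.64 ± 0.16). Such messages mostly lack the poly(A) tail by which the libraries were selected, and near-identical histone copies can share reads.

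Genes of steroid action were the direct concern of the treatment. Nr3c1, the glucocorticoid receptor, had 12.7 ± 0.394 FPKM in ADM+DHT, against 15.6 ± 0.273 FPKM in ADM (-0.27 ± 0.046). Of 27 genes of steroid receptors and metabolism 12 fell and 4 rose (median -0.24). Akr1c18, a 20α-hydroxysteroid dehydrogenase that inactivates progesterone, had 59.8, 55.1 and 56.6 FPKM in ADM+DHT, against 18.6, 17.5 and 17.2 FPKM in ADM (1.63 ± 0.048). Fdxr, which passes electrons to steroid-making enzymes, had 15.8 ± 1.41 FPKM in ADM+DHT, against 7.32 ± 0.261 FPKM in ADM (1.01 ± 0.072). Akr1c14, which acts on 3α-hydroxysteroids and converts DHT, fell, with 7.21 ± 0.65 FPKM in ADM+DHT, against 15.7 ± 0.479 FPKM in ADM (-1.03 ± 0.069). Esr1, the oestrogen receptor α, had 0.693 ± 0.0701 FPKM in ADM+DHT, against 2.32 ± 0.3902 FPKM in ADM (-0.97 ± 0.11). Srd5a1, which makes DHT from testosterone, lay under the level tested, with 0.526, 0.5697 and 0.357 FPKM in ADM+DHT, against 0.777, 0.571 and 0.937 FPKM in ADM.

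Of 81 tested genes of an androgen response list drawn from human prostate cells 29 rose and 18 fell (median 0.027), against 17.2% and 16.3% of all genes. Ndrg1, named above, led the rises, followed by Pias1, a SUMO ligase that binds the receptor, at 18.3 ± 0.839 FPKM in ADM+DHT, against 8.56 ± 0.361 FPKM in ADM (1.01 ± 0.056). Abhd2, a hydrolase, had 15.6 ± 0.539 FPKM in ADM+DHT, against 7.29 ± 0.124 FPKM in ADM (1.00 ± 0.049). Steap4, a metal reductase, fell, with 18.4, 18.1 and 19.2 FPKM in ADM+DHT, against 46.9, 48.9 and 48.1 FPKM in ADM (-1.32 ± 0.04), as did Ptk2b, a relative of focal adhesion kinase (-0.83 ± 0.08). Several of the falling members on this list, such as Insig1 and Hmgcs1, also belong to the sterol and fat lists above, and they were added after their values were seen.

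Dexamethasone was in the medium of both ADM+DHT and ADM cultures. Genes known to respond to glucocorticoids had 11 rises and 12 falls among 34 (median -0.017), against 17.2% and 16.3% over all genes. Dusp1 and Lox, the collagen cross-linking oxidase, rose (0.86 ± 0.078 and 0.79 ± 0.028). Sult1a1, a sulfotransferase, had 83.6, 85.2 and 86.3 FPKM in ADM+DHT, against 162, 163 and 168 FPKM in ADM (-0.94 ± 0.031). Orm1, an acute-phase protein, had 18.6, 17.8 and 14.1 FPKM in ADM+DHT, against 48.9, 51.2 and 54.8 FPKM in ADM (-1.57 ± 0.1). Tsc22d3, a classical glucocorticoid target also called GILZ, had 99.3, 99.8 and 86.6 FPKM in ADM+DHT, against 97.7, 105 and 105 FPKM in ADM and did not pass (-0.11 ± 0.063, adjusted p = 0.227). In regular medium 24 of 33 members rose and 4 fell, against 12.7% rises and 14.1% falls over all genes there.

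Detoxifying enzymes showed 15 falls and 14 rises among 40, against 16.3% and 17.2% over all genes. The carboxylesterase Ces1f had 0.749 ± 0.0929 FPKM in ADM+DHT, against 5.29 ± 0.452 FPKM in ADM (-1.85 ± 0.085), and Cyp4b1, a fatty acid hydroxylase, fell (-1.25 ± 0.15). Rises were those of Cyp2f2, a cytochrome of the airway lining (1.43 ± 0.064), and Aldh3b1, an aldehyde dehydrogenase (0.73 ± 0.1). Of 31 antioxidant genes 10 fell and 5 rose, with the rises near the 17.2% of all genes. The mitochondrial peroxidase Prdx3 had 37.99, 41.3 and 39.6 FPKM in ADM+DHT, against 83.7, 96.5 and 93.8 FPKM in ADM (-1.18 ± 0.061) and its fellow Sod2 a difference of -0.68 ± 0.044. The rises were led by Msrb1, a methionine sulfoxide reductase (0.87 ± 0.044). Among 14 genes of retinoid and thyroid hormone handling 4 rose and 2 fell, with the falls near the 16.3% of all genes. Retsat, a retinol saturase of fat, had 16.02 ± 1.08 FPKM in ADM+DHT, against 31.4 ± 0.8604 FPKM in ADM (-0.93 ± 0.057).

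Complement and acute-phase genes had 12 rises and 11 falls among 28, against 17.2% and 16.3% over all genes. C3, the central complement protein, had 534, 519 and 555 FPKM in ADM+DHT, against 1456, 1454 and 1409 FPKM in ADM, a difference of -1.42 ± 0.033 (adjusted p = 9.65e-07) at one of the highest levels in the cells. Serpina3f, a serine protease inhibitor, rose, with 4.399 ± 0.2802 FPKM in ADM+DHT, against 1.42 ± 0.307 FPKM in ADM (1.16 ± 0.1). Chemokine and cytokine genes had 10 rises and 4 falls among 27. Ccl9, a neighbour of Ccl6, had 29.5 ± 1.39 FPKM in ADM+DHT, against 14.5 ± 1.097 FPKM in ADM (0.98 ± 0.065). Ccl7, which attracts monocytes, had 10.9 ± 1.76 FPKM in ADM+DHT, against 5.69 ± 0.736 FPKM in ADM (0.82 ± 0.13). Il1rn, the interleukin 1 receptor antagonist, fell, with 28.1, 30.4 and 35.2 FPKM in ADM+DHT, against 65.3, 68.7 and 48.7 FPKM in ADM (-0.93 ± 0.14). Interferon-stimulated genes had 6 rises and 6 falls among 32, shares near the 17.2% and 16.3% of all genes. Irgm1, a GTPase of cell defence, had 10.3 ± 0.679 FPKM in ADM+DHT, against 5.56 ± 0.281 FPKM in ADM (0.78 ± 0.068).

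Genes that lie beside near-identical copies are given next, and these families were picked after their values were seen. Of the Klk1b kallikreins, serine proteases known as androgen-dependent in the mouse salivary gland, the pair with at least 1 FPKM in both groups rose. Klk1b21 had 18.8, 18.4 and 20.9 FPKM in ADM+DHT, against 1.58, 2.22 and 2.202 FPKM in ADM (2.77 ± 0.1). Klk1b24 had 6.403, 5.31 and 6.33 FPKM in ADM+DHT, against 1.01, 1.84 and 2.099 FPKM in ADM (1.42 ± 0.16). Klk1b27, Klk1b16 and Klk1b22 had differences of 1.71, 1.63 and 1.28. These 3 reached 1 FPKM in ADM+DHT alone, so the level filter let them in through the group where they were high, which largely fixed their direction. Over all genes 17.2% rose. The 5 genes lie within chr7:44052290-44192455. Copies can take each other's reads: 12.7% of the 75-base windows of the Klk1b21 transcript and 14.4% of those of Klk1b24 were found in another member, so the split among members is uncertain. The stretch of 130 bases before the deposited gene start is nearly the same in both genes (chr7:44102198-44102327 and chr7:44188106-44188235, plus strand, RefSeq, GRCm38.p6), shown because both rose and because it shows how alike the copies are, with the word TTTAAA in capitals:
Klk1b21: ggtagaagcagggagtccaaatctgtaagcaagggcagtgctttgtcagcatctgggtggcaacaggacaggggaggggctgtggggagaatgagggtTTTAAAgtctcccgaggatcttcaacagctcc
Klk1b24: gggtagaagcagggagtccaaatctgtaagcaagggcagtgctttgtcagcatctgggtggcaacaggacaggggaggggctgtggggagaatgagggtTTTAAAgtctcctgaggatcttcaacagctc
Over the 129 bases they share 128 were identical, and the only substitution was C111T, counted from 1 at the left end of the Klk1b21 stretch with the base of Klk1b21 first. The word TTTAAA was in 10.9% of all promoters.

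The orosomucoid genes, acute-phase carriers in a row on chromosome 4, parted. Orm3 had 20.8, 24.9 and 22.1 FPKM in ADM+DHT, against 1.82, 2.15 and 2.33 FPKM in ADM, a difference of 2.93 ± 0.091. Orm2 had 10.8, 13.3 and 14.7 FPKM in ADM+DHT, against 10.01, 10.3 and 9.26 FPKM in ADM (0.35 ± 0.11), and Orm1 fell as given above. Orm1 and Orm2 shared 13.8% and 14% of their 75-base windows with another copy and Orm3 0.143%, so reads may be divided between the first pair but hardly with Orm3. Upstream of the start, Orm2 carries the word AGAACA where Orm3 has a single changed base in it, G41A, counted from 1 at the left end of the printed 70 bases with the base of Orm3 first. The word and its counterpart are in capitals, at chr4:63355989-63356058 and chr4:63362281-63362350 on the plus strand:
Orm3: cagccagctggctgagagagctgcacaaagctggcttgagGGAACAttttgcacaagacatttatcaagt
Orm2: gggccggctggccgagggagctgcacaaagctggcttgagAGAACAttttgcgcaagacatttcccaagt
The stretches were identical at 61 of 70 bases, and the copy without the exact word was the one with the larger rise. Whether the word bears on the change of either gene was not tested.

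Other neighbours parted as well. Aldh1a1, which makes retinoic acid, rose with 83.7 ± 3.52 FPKM in ADM+DHT, against 60.5 ± 0.729 FPKM in ADM (0.46 ± 0.039). Its neighbour Aldh1a7 fell with 129.7 ± 5.74 FPKM in ADM+DHT, against 161 ± 6.26 FPKM in ADM (-0.31 ± 0.045), and they share 2.19% and 2.51% of their windows. Akr1c18 and Akr1c14 on chromosome 13 went opposite ways and share none. Of 5 tested Serpina3 genes on chromosome 12, 3 rose and Serpina3n fell, with 25.6 ± 1.35 FPKM in ADM+DHT, against 38.5 ± 1.097 FPKM in ADM (-0.58 ± 0.049).

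The effect of DHT differed between the media in many genes. The interaction, which is the ADM+DHT minus ADM difference less the difference of DHT cells from control cells, was estimated across the 12 libraries. By it 1393 of 11152 genes (12.5%) had a higher and 1442 (12.9%) a lower difference in adipogenic medium (limma, adjusted p below 0.05). On libraries rescaled to the same sum these were 1748 and 1265. In regular medium itself 1376 genes of 10820 were higher and 1531 lower in DHT than in control. The media differ in every component of ADM at once, so no part of it can be singled out.

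**Figure D4:**
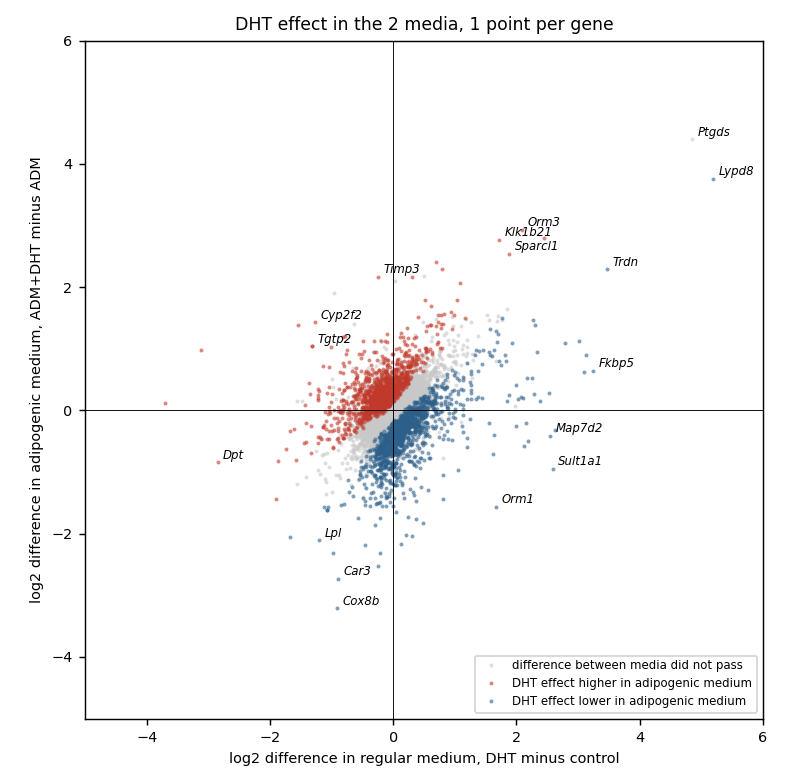
Log2 difference made by DHT in adipogenic medium (vertical axis, ADM+DHT minus ADM) against that in regular medium (horizontal axis, DHT minus control), 1 point per gene. Red points have a higher and blue points a lower difference in adipogenic medium by the interaction test, and grey points did not pass; Sult1a1, Orm1 and Map7d2 lie at the lower right and Cyp2f2 and Tgtp2 at the upper left.

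Genes with opposite directions stood out among the largest interactions. Sult1a1 fell in adipogenic medium, as given above, and rose in regular medium, with 9.19, 10.04 and 10.1 FPKM in DHT, against 0.855, 0.679 and 0.829 FPKM in control, an interaction of -3.54 ± 0.069 (adjusted p = 1.45e-10). Orm1 did likewise, with 2.65, 2.303 and 2.46 FPKM in DHT, against 0, 0.143 and 0.1396 FPKM in control (-3.23 ± 0.14). Both genes were far higher in ADM than in control cells. Map7d2, a microtubule-associated protein, had 30.4, 30.1 and 28.9 FPKM in ADM+DHT, against 39.3, 40.7 and 39.9 FPKM in ADM. In regular medium it had 5.05, 6.45 and 5.71 FPKM in DHT, against 0.2204, 0.111 and 0.115 FPKM in control (interaction -2.96 ± 0.1). Aldh1a7 had 12.1, 12.8 and 10.3 FPKM in DHT, against 1.38, 0.763 and 1.04 FPKM in control (-2.94 ± 0.14). In these 4 genes DHT was higher than control by several fold while ADM+DHT lay below ADM.

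The reverse held for a second set. Cyp2f2 had 24.8, 22.8 and 23.1 FPKM in ADM+DHT, against 8.78, 7.88 and 7.66 FPKM in ADM. Regular medium gave it 5.28, 5.69 and 7.04 FPKM in DHT, against 17.2, 14.5 and 15.97 FPKM in control, an interaction of 2.71 ± 0.13 (adjusted p = 7.86e-08). Tgtp2, an interferon-induced GTPase with a near-identical copy, had 4.34, 4.32 and 4.06 FPKM in ADM+DHT, against 1.47, 1.27 and 1.95 FPKM in ADM. In regular medium it had 2.12, 1.45 and 2.59 FPKM in DHT, against 7.28, 6.25 and 6.07 FPKM in control (2.36 ± 0.19). Cdsn, corneodesmosin, an adhesion protein of skin, had 10.9 ± 2.42 FPKM in ADM+DHT, against 4.81 ± 0.906 FPKM in ADM and 37.6 ± 4.06 FPKM in DHT, against 76.7 ± 7.23 FPKM in control (2.03 ± 0.22). All 3 were higher in ADM+DHT than in ADM and lower in DHT than in control. Dio2, the deiodinase that activates thyroid hormone, gave the largest positive interaction, 3.87 ± 0.093, through regular medium, where it had 2.28, 2.19 and 2.61 FPKM in DHT, against 79.1, 75.7 and 74.2 FPKM in control. In adipogenic medium it had 0.147, 0.212 and 0.209 FPKM in ADM+DHT, against 0.893, 0.957 and 0.783 FPKM in ADM and stayed under the level filter. Dpt, dermatopontin, a matrix protein, fell in both media but by more in regular medium. It had 1.51, 1.41 and 1.49 FPKM in ADM+DHT, against 3.27, 3.33 and 3.65 FPKM in ADM, and 3.37, 3.798 and 3.21 FPKM in DHT, against 30.1, 33.03 and 30.2 FPKM in control (2.01 ± 0.094).

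Of the genes always reported, Runx2 had an interaction of 0.40 ± 0.099 and Tsc22d3 of -1.08 ± 0.11. Fkbp5, a chaperone of steroid receptors, rose in both media. It had 180.1, 188 and 182 FPKM in ADM+DHT, against 116, 115 and 119 FPKM in ADM (0.64 ± 0.031), and 49.9, 50.8 and 47 FPKM in DHT, against 4.46, 3.92 and 4.61 FPKM in control, an interaction of -2.59 ± 0.07. Negative interactions passed in 58 of 80 nuclear respiratory chain genes, 26 of 34 pyruvate and citric acid cycle genes, 22 of 29 fatty acid oxidation genes and 21 of 34 glucocorticoid genes, against 12.9% over all genes. Positive ones passed in 22 of 42 collagen genes, 18 of 34 glycolysis and hypoxia genes and 24 of 36 interferon-stimulated genes, against 12.5%. For the interferon and glycolysis lists this came with falls in regular medium, 30 of 35 and 24 of 33 members.

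**Figure D5:**
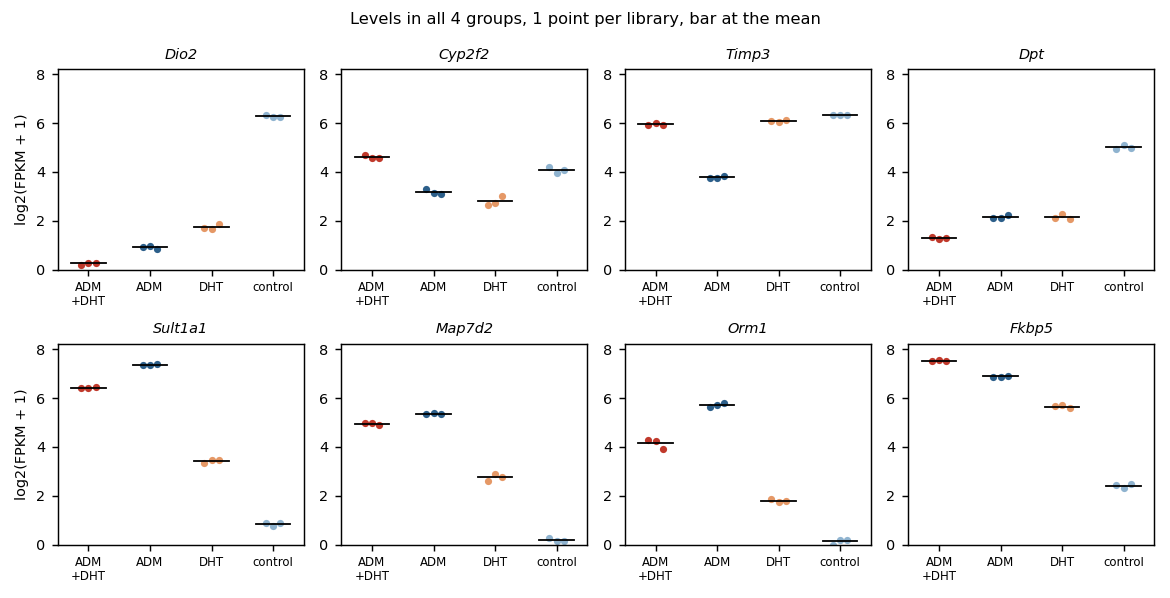
Levels as log2(FPKM + 1) of 8 genes in each library of ADM+DHT, ADM, DHT and control, from left to right. Sult1a1, Map7d2 and Orm1 are lower in ADM+DHT than in ADM and higher in DHT than in control, Cyp2f2 shows the reverse, and Timp3 is low in ADM alone.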

How the data were processed

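The comparison used the 3 ADM+DHT and 3 ADM libraries, and the 3 DHT and 3 control libraries entered for the interaction and as levels. Groups came from the sample titles and treatment labels; 1 ADM+DHT title is misspelled and was read as replicate 2. Per the labels' protocols, poly(A) RNA was made into strand-specific libraries and sequenced as paired ends of 150 cycles. Tools named, without versions, in the submitters' processing notes are FastQC, cutadapt, HISAT2 and StringTie, with the build GRCm38. The FPKM values of protein-coding genes were made by the authors and deposited as 4 files, each for a pair of groups, and a library had the same values in each. The deposited log2 fold changes were found to equal differences of mean log2(FPKM + 1), the fold change of the authors being their ratio. The p-value and q-value of the authors come from a test that no header names, so they were not used beyond a count: 1444 genes in the authors' deposited table were higher and 1387 lower at a q-value below 0.05.

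Here log2(FPKM + 1) was tested with limma 3.58.1 (R 4.3.3, data.table package 1.17.8), moderated variances with an intensity trend, two-sided, with Benjamini-Hochberg adjustment over all genes tested and a threshold of 0.05, after tests of the scripts on simulated data. Tables and figures used Python 3.11.15, pandas 2.3.3, numpy 2.4.6 and matplotlib 3.10.9. The depth of the libraries is unknown. Values of 150 low genes were divided by the smallest value of each gene, and 5.04% to 11.3% per library were whole multiples within 0.05. Libraries were not scaled for depth in this check, so it could not have shown whole reads. No counts were recovered, and no counting intervals are given. Whether the 3 replicates came from separate cultures is given only as the word replicate, so p-values measure the spread between these samples. Lists were counted, with no set test, and a gene may be on several.

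The 10823 genes, the 55 lists and the tests were chosen with earlier results of these data known. Genes were named by rule: the 15 largest rises and falls without overlap at 5 FPKM or more, the 8 largest interactions in each direction, up to 5 changed members of a list and 3 against its majority, the 5 smallest p, the 5 widest spreads and 11 set genes; others are said to be chosen after their values were seen. A few of the genes so chosen are not reported here. Families sharing reads were checked as 75-base windows of the longest protein-coding GENCODE transcript of each gene. Alternatives were other pseudocounts, filters and scalings, no trend, a replicate block, the variance of all 12 libraries and each library left out. The same-numbered libraries of ADM+DHT and ADM had deviations that correlated at -0.057, 0.024 and -0.135 over 11338 genes, so numbers were not treated as pairs.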

Additional observations from a re-analysis of the deposited data

Results flagged for a closer look

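The effect of DHT differed between adipogenic and regular medium by the interaction test (limma over 12 libraries, adjusted p below 0.05), with 1393 genes higher and 1442 lower in adipogenic medium. The values below are that difference between the media on the log2 scale, and their causes were not tested.

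Among the genes named by rule, Dio2 had 3.87, 9930111J21Rik2 2.94, Cyp2f2 2.71, Timp3 2.41, Tgtp2 2.36, Cdsn 2.03, Dpt 2.01 and Runx2 0.40. Hoxa7, a homeobox factor, had 2.01 on libraries that were scattered, with 8.85, 8.24 and 6.87 FPKM in ADM+DHT, against 1.67, 6.598 and 1.99 FPKM in ADM, and 2.29, 7.78 and 2.64 FPKM in DHT, against 7.64, 7.42 and 6.94 FPKM in control. Negative values were those of Sult1a1 at -3.54, Orm1 at -3.23, Map7d2 at -2.96 and Aldh1a7 at -2.94, which fell in adipogenic and rose in regular medium. Fkbp5, at -2.59, rose in both. Ephx2 at -3.90, Gpd1 at -3.43, Retn at -3.28 and Ppp1r1a at -2.77 were near 0 in regular medium, so their values restate the fall in adipogenic medium (-3.93, -3.36, -3.35 and -2.78). In regular medium Ephx2 had 0.029 ± 0.0502 FPKM in DHT, against 0.0575 ± 0.0996 FPKM in control. Gpd1 had 0.505 ± 0.0513 FPKM in DHT, against 0.432 ± 0.128 FPKM in control. Retn had 0.112 ± 0.0697 FPKM in DHT, against 0.174 ± 0.151 FPKM in control. Ppp1r1a had 0.159 ± 0.138 FPKM in DHT, against 0.164 ± 0.142 FPKM in control. Cebpa had -2.10 and Tsc22d3 -1.08. With a library left out, the call of Cebpa ended in 9 of 12 fits, at adjusted p up to 0.0972. That of Hoxa7 ended without ADM replicate 1 or 3 or DHT replicate 1 or 3 (up to 0.0545).

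The lists given here are those in which most tested members had such a difference in the same direction. Negative ones, against 12.9% of all genes, passed in 58 of 80 nuclear and 12 of 13 mitochondrially encoded respiratory chain genes. They passed in 26 of 34 pyruvate and citric acid cycle genes, 26 of 41 peroxisomal genes and 22 of 29 fatty acid oxidation genes. They also passed in 21 of 34 glucocorticoid genes and 20 of 28 genes of branched-chain amino acid breakdown. Fat cell transcription factors had 13 of 24, lipid droplets 13 of 22 and brown fat 4 of 7. Some members were near 0 in regular medium, so their values restate the fall in adipogenic medium. Plin1 had 0.0797 ± 0.0397 FPKM in DHT, against 0.0729 ± 0.0214 FPKM in control. Slc25a34 had 0.148 ± 0.0574 FPKM in DHT, against 0.0786 ± 0.0066 FPKM in control. Others were not so low, such as Cebpa with 14.3 ± 0.484 FPKM in DHT, against 18.1 ± 8.22 FPKM in control. Positive ones, against 12.5% of all genes, passed in 24 of 36 interferon-stimulated genes and 22 of 42 collagen genes. They passed in 18 of 34 glycolysis and hypoxia genes and 18 of 35 matrix proteases and inhibitors. Other lists also lay above the share of all genes, such as complement with 13 of 29 negative and the lysosome with 19 of 45 positive.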

How the results depend on the processing

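The counts of genes higher and lower in ADM+DHT and of both interaction directions stayed within 1.5 times their values under all alternatives run. With a library left out, 1453 to 1592 genes were higher and 1462 to 1545 lower in ADM+DHT, 1215 to 1334 interactions were positive and 1294 to 1405 negative, and the difference in the share of FPKM in mitochondrially encoded genes was -3.39 to -2.98 percentage points. Rescaling to the same sum, which shifted the median of all genes to 0.064, gave 2572 higher and 1431 lower genes and 1748 positive and 1265 negative interactions. The replicate block gave 1511 higher and 1522 lower genes and 1349 and 1401 interactions; since same-numbered libraries did not deviate together (r = -0.057, 0.024 and -0.135), the numbers are not taken as pairs. Of 335 named results, the block took 16 below the threshold, the fit with no trend 12 and the rescaling 7, and none of these settings turned a direction. One interaction that never passed changed sign, that of Srd5a1, at -0.10 over all libraries and -0.21 to 0.026 with a library left out. The brown fat list had 2 falls in place of 5 among genes of at least 5 FPKM, the interferon-stimulated list 2 in place of 6, and tested chemokine genes 1 in place of 4. Counts of 1 or 2 members against the majority of a list often moved by 1. Genes near 1 FPKM have little depth behind them, and a depth that is unknown sets no limit that could be printed.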

Other observations

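Zbed6, a transcription factor encoded in an intron of Zc3h11a, was among the genes of widest spread, with 1.37, 13.4 and 13.5 FPKM in ADM+DHT, against 0.447, 0.485 and 1.44 FPKM in ADM, and 14.5, 1.23 and 2.79 FPKM in DHT, against 0.433, 1.06 and 14.7 FPKM in control. Its libraries fell near 1 or near 14 FPKM in ADM+DHT, DHT and control cells without regard to group, and the ADM libraries were all low. Values that jump between 0 and a high level also occurred in Gm20431 and Gm45717, which were listed at 0 in some libraries and had up to 20.8 and 171.6 FPKM in others. These genes are given as values only.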
